A study of Mus musculus with 10 samples.

Results

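The nuclear-encoded subunits of the mitochondrial respiratory chain and of ATP synthase were measured in mouse regulatory T cells (Treg) with and without loxP-flanked Tcf7 and Lef1. The subunit genes were chosen by name, as genes whose symbols begin with Ndufa, Ndufb, Ndufc, Ndufs or Ndufv and a digit, with Uqcr, with Atp5 or with Cox and a digit between 4 and 8 followed by a, b or c, together with Sdha, Sdhb, Sdhc and Sdhd. They also had to reach at least 1 FPKM, a fragment count divided by transcript length and by the library's fragment total, in at least 2 of the 4 libraries. Of 32767 genes in the tables, 86 carried such a name, and 76 of these reached the level, among 10710 genes that did. By name they fall into complex I (36 of 37 genes), complex II (4 of 4), complex III (8 of 8), complex IV (11 of 16) and complex V (17 of 21). The choice used the level and not the difference between the groups, and 73 of the 76 reached 1 FPKM in all 4 libraries.

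Complexes I and II feed electrons from NADH and succinate to ubiquinone, complex III passes them to cytochrome c, and complex IV hands them to oxygen. Complexes I, III and IV pump protons across the inner mitochondrial membrane, and complex V, the ATP synthase, lets them flow back to make ATP. Most subunits are encoded in the nucleus and imported, while a small catalytic set is encoded by mitochondrial DNA. Treg are known for relying more on oxidative phosphorylation than conventional effector T cells do.

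The dKO group held 2 libraries of Treg from Foxp3cre/wtTcf7fl/flLef1fl/fl mice, and the WT group held 2 libraries of Treg from Foxp3cre/wtTcf7wt/wtLef1wt/wt mice. Tcf7 and Lef1 encode the related transcription factors TCF1 and LEF1. All mice were C57BL/6 and carried Foxp3-cre. CD4 T cells of spleen and lymph nodes were enriched on magnetic columns, and the cells were sorted by the YFP that marks Cre. The mice were heterozygous for Foxp3-cre, so a host can also hold Treg without Cre, which the sort leaves out. RNA was made into stranded mRNA libraries. The labels give no ages and do not tie the 2 replicates of a group to different animals. The p-values therefore reflect library-to-library spread only, part or all of which may be technical.

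Lef1 and Tcf7 check the labels in part, since a gene-level FPKM includes exons that stay. Lef1 was at 71.6 and 62.8 FPKM in dKO and at 160 and 167 FPKM in WT (log2 fold change -1.27, limma adjusted p = 0.016). Tcf7 was at 316 and 272 FPKM in dKO and at 456 and 501 FPKM in WT and missed the threshold of 0.05 (adjusted p = 0.081). Foxp3, which defines Treg, was at 126 and 114 FPKM in dKO and at 120 and 106 FPKM in WT. The absolute depth of the libraries is unknown. Read from the lowest values, the depth was 67.7% and 71.1% in dKO and 72.0% in WT replicate 2, relative to WT replicate 1. Myeloid markers stood apart in dKO replicate 2, where 9 of 9 were highest: their summed level was 5.49 and 75.72 FPKM in dKO and 8.98 and 3.54 FPKM in WT. Among them, Lyz2 had 0.857 and 31.9 FPKM in dKO and 3.56 and 0.904 FPKM in WT, and Cd14 was listed at 0 in dKO replicate 1 and WT replicate 2. B cell markers summed to 24.51 and 25.16 FPKM in dKO and 16.87 and 17.57 FPKM in WT, most of it from Cd79b.

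The question was whether the levels of respiratory chain subunit mRNAs differ between Treg of the 2 genotypes. None of the 76 genes passed the limma test at an adjusted p of 0.05, where 0.700% of all genes tested did (75 of 10710). At an unadjusted p under 0.05 there were 3 subunit genes, Ndufv1, Ndufc1 and Ndufv3, all of complex I and all with positive log2 fold changes as deposited. These 3 are 3.95% of the subunit genes, against 17.3% of all genes tested. Under a scaling to equal summed FPKM, 37 of 76 subunit genes had an unadjusted p under 0.05, all lower in dKO. Of all genes tested, 4419 of 10710 did under that scaling. With the replicate number as a block, 1 subunit gene was higher and 1 lower at that p, where 1569 of all 10710 genes tested reached it. As deposited, the log2 fold change was positive for 50 of 76 subunit genes (65.8%, against 52.8% of all genes tested). The median was 0.045 (0.013 over all genes tested). Under a scaling to equal summed FPKM the median was -0.196, and 3 of 76 were positive, against 16.8% of all genes tested. Both dKO libraries lay above both WT libraries for 23 genes (30.3%, against 26.6% of all genes tested). For 8 genes each dKO library lay below each WT library (10.5%, against 24.2% of all genes tested), and the groups overlapped for the other 45.

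As deposited, the intervals show how large a difference these libraries leave room for. The 95% interval of the log2 fold change lay within 0.5 on either side of 0 for 71 of 76 genes and within 1 for 74. The dKO mean was within 10% of the WT mean for 60 genes and within 25% for 74. Both exceptions to the wider limit, Atp5s and Atp5k-ps2, are weakly expressed. Under the scaling to equal summed FPKM the differences were larger, with log2 fold changes down to -0.42 (SE 0.09) for Uqcrh and -0.41 (SE 0.08) for Cox7a2l among the genes that passed there. The median SD between replicates was 0.074 on the log2 scale, against 0.099 over all genes tested. Subunit genes are expressed well above most others, with a median of 107 FPKM against 16.1 FPKM. In bulk RNA, fewer cells of a type and less RNA per cell cannot be told apart.

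**Figure D1:**
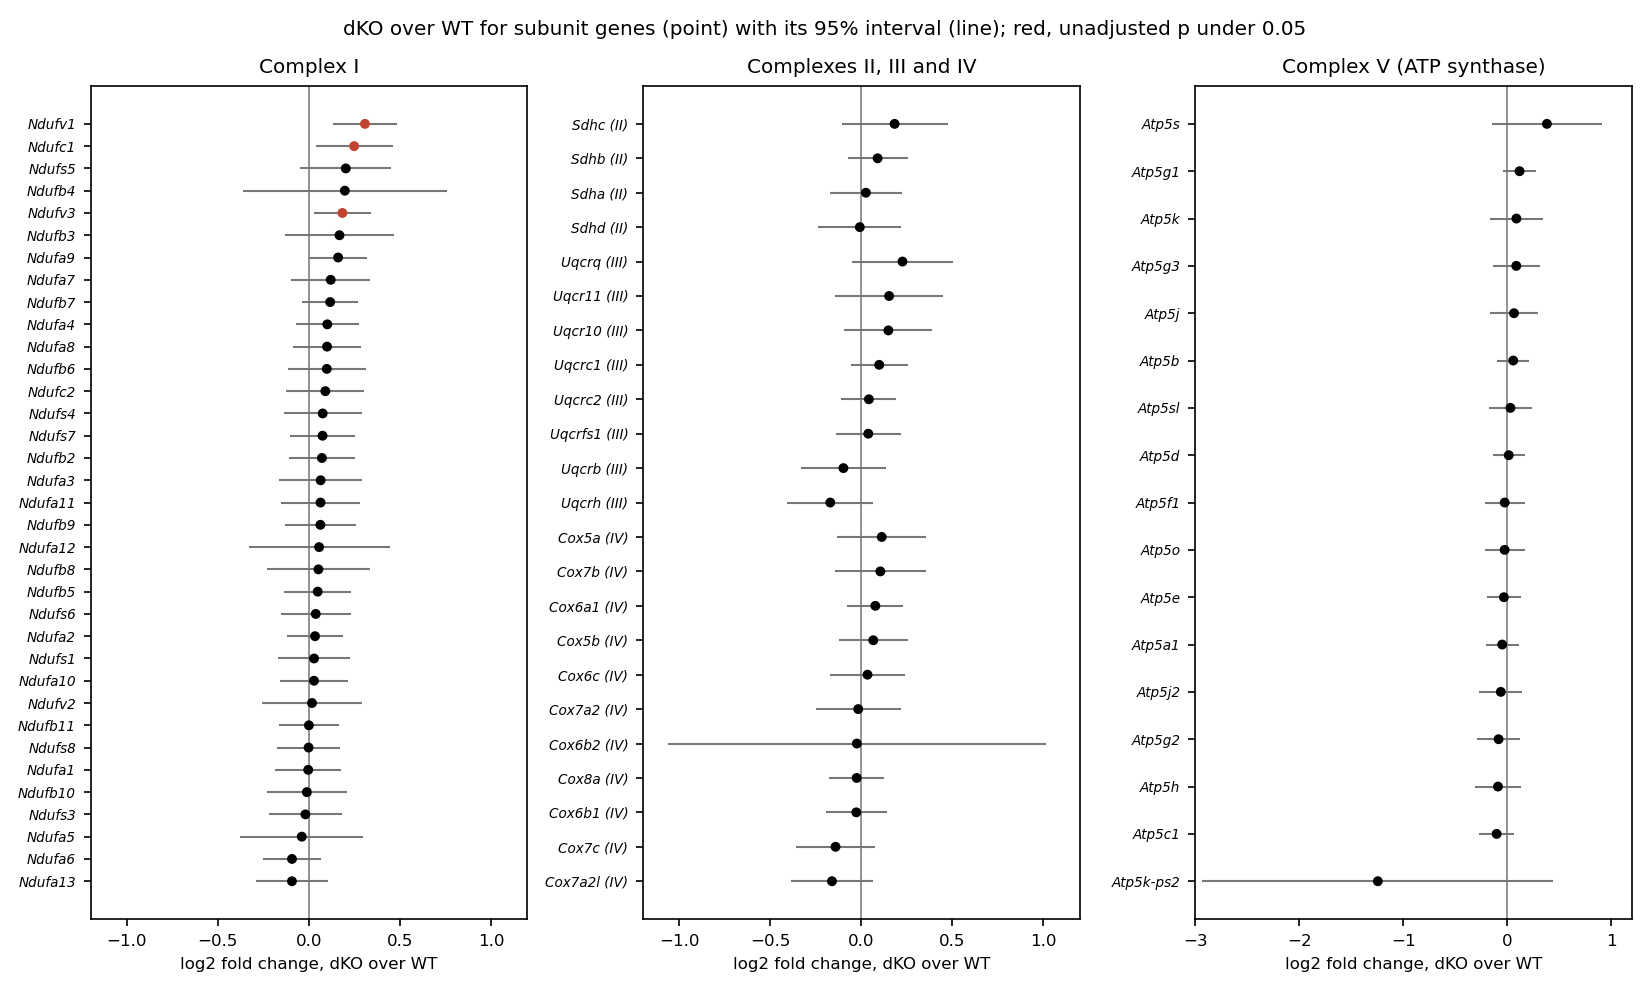
Log2 fold change of 75 of the 76 subunit genes, dKO over WT, on the log2(FPKM + 1) scale (horizontal axis; the axis of the complex V panel is wider), with its 95% limma interval as a line and genes sorted by change within each complex. The 3 genes with an unadjusted p under 0.05 are red, and none passed after adjustment. As deposited, 50 of the 76 genes have a change above 0, as do 52.8% of all genes tested. Under a scaling to equal summed FPKM 3 do, as do 16.8% of all genes tested.

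The scaling bears on any statement about the family as a whole. Summed over all genes, the tables held 726571 and 719527 FPKM in dKO and 599231 and 619340 FPKM in WT. Gm26377, a microRNA gene model, made up 16.34% and 16.95% of the dKO sums and was listed at 0 in both WT libraries. The subunit genes held 1.455% and 1.545% of the summed FPKM in dKO and 1.752% and 1.748% in WT. Over genes above 0 in every library alone, the shares turned round, with 1.801% and 1.924% in dKO and 1.766% and 1.761% in WT. Scaled to equal summed FPKM, the median of all genes moved to -0.22 and that of the subunit genes lay 0.024 above it. In that setting 7 subunit genes passed, all lower in dKO, among 1552 genes that passed. They were Atp5e, Ndufa6, Cox7a2l, Atp5a1, Atp5c1, Cox8a and Uqcrh.

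Single libraries moved the family as well. Replicate 2 lay above replicate 1 in 57 of 76 subunit genes in dKO and in 53 in WT, and in both groups in 43 (56.6%, against 27.2% of all genes tested). Without dKO replicate 1 the median log2 fold change was 0.078 with 62 genes positive, against 0.010 over all genes. Without dKO replicate 2, the library with the myeloid markers, it was 0.012 with 43 positive, against 0.011 over all genes, a distance of 0.001. Without WT replicate 1 it was 0.026 with 42 positive, against -0.004 over all genes, a distance of 0.031. Without WT replicate 2 it was 0.053 with 58 positive, against 0.028 over all genes, a distance of 0.025. With all 4 libraries the distance was 0.032. With any 1 of the 4 libraries left out, no subunit gene passed. The part of the myeloid markers in these values was not tested.

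Levels differed far more between the subunits than between the genotypes. FPKM is per length, so levels can be set side by side between genes. The highest was Atp5b, the catalytic beta subunit of ATP synthase, with 669 and 688 FPKM in dKO and 651 and 653 FPKM in WT. On the GRCm38 build it lies on chromosome 10 from 128083273 to 128090391 (GENCODE annotation). The lowest gene, Cox6b2, averaged 1.49 FPKM. Over 100 FPKM on average were 41 of the 76 genes. The median level was 82.7 FPKM in complex I, 103 in complex II, 138 in complex III, 149 in complex IV and 205 in complex V, with wide overlap between the complexes.

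**Figure D2:**
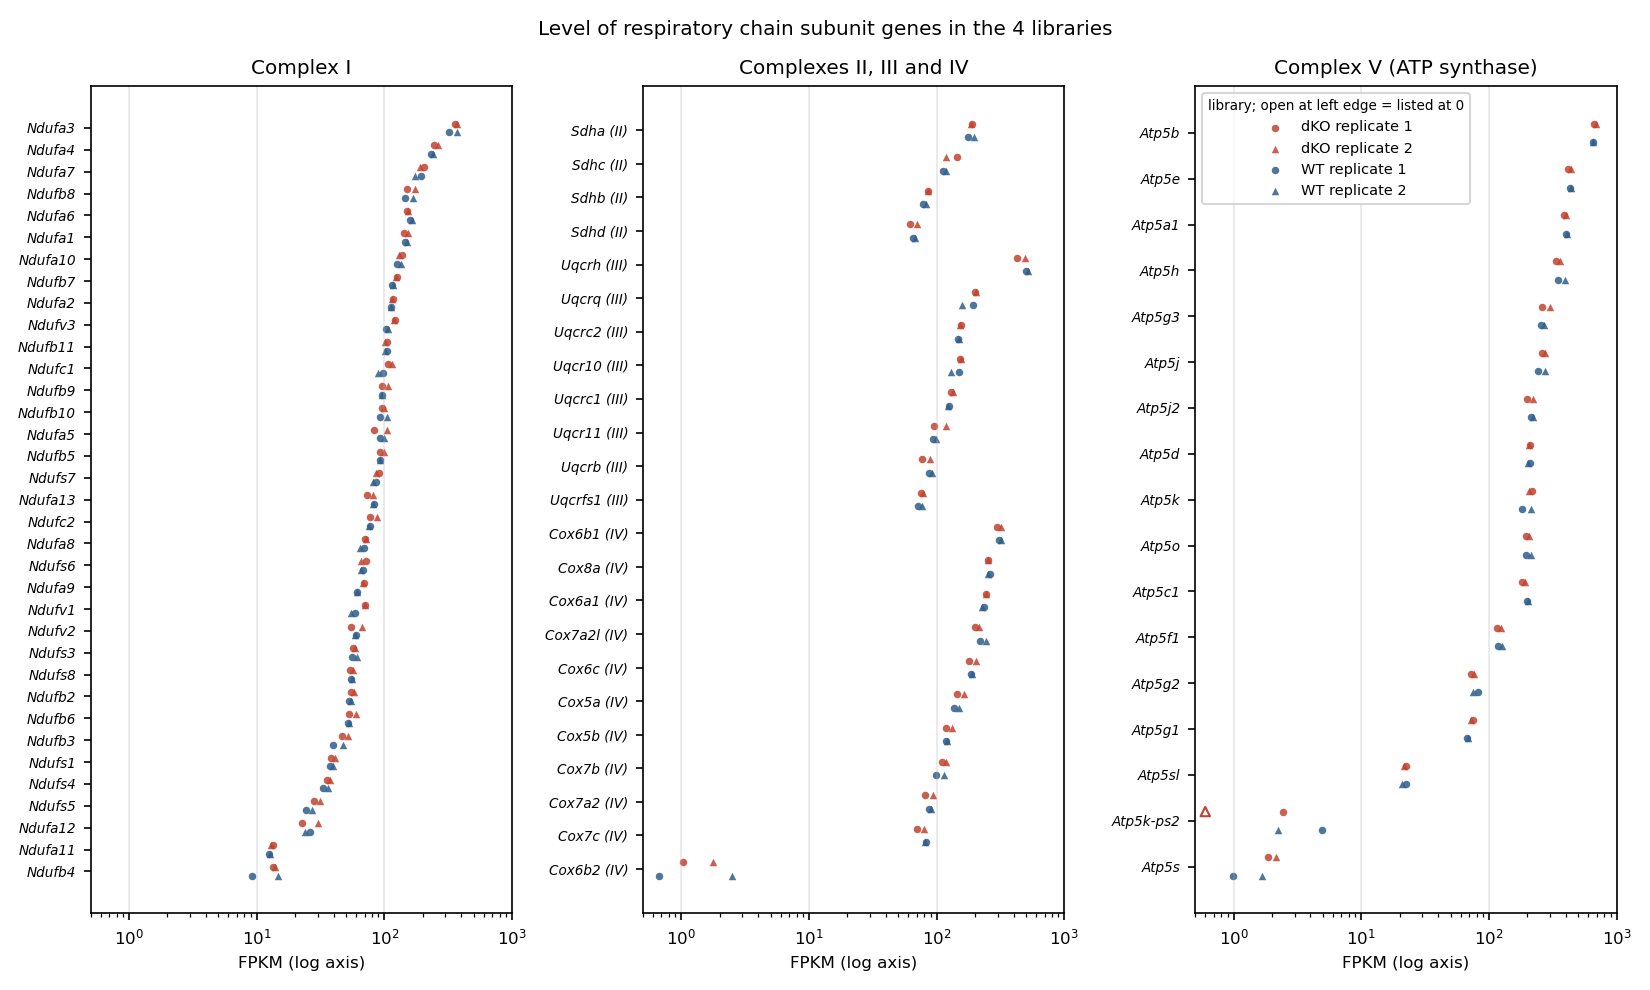
FPKM of 75 of the 76 subunit genes in each of the 4 libraries (horizontal log axis), dKO in red above WT in blue, with replicate 1 as circles and replicate 2 as triangles; an open symbol at the left edge is a value listed at 0. Levels span 1.49 to 665 FPKM between genes, while the 4 libraries of most genes lie close together. The SD between replicates on the log2 scale is largest for Atp5k-ps2 (0.99), Cox6b2 (0.58), Ndufb4 (0.31) and Atp5s (0.22).

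In complex I, as deposited, 28 of 36 genes (77.8%, against 52.8% of all genes tested) had a positive log2 fold change and 8 a negative one. The median was 0.063 as deposited and -0.182 (0.037 above all genes) under the scaling to equal summed FPKM. Under that scaling 2 of 36 were positive, against 16.8% of all genes tested, and 1 passed, among 1552 of 10710 genes. Without dKO replicate 1 the median was 0.112 with 31 of 36 positive, and without dKO replicate 2 it was 0.031 with 23 positive. As deposited, the groups did not overlap for 16, of which 14 were higher and 2 lower in dKO. Of all genes tested, 26.6% were higher and 24.2% lower in this way. Ndufv1, the subunit that binds NADH and its flavin, had the smallest p of the family. Its level was 70.5 and 70.3 FPKM in dKO, against 58.5 and 55.0 FPKM in WT, a mean of 70.4 ± 0.12 FPKM in dKO and 56.7 ± 2.46 FPKM in WT (SD, n = 2 each). The log2 fold change was 0.31 (SE 0.07, 95% interval 0.13 to 0.48), and it missed the threshold (limma adjusted p = 0.147). Ndufv1 lies on chromosome 19 from 4007384 to 4012806.

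Of its partners in the NADH-oxidizing arm, Ndufv2, which carries an iron-sulfur cluster beside Ndufv1, had 55.2 and 66.5 FPKM in dKO and 60.4 and 59.3 FPKM in WT. Ndufs1, the largest subunit of that arm, had 38.0 and 40.7 FPKM in dKO and 37.6 and 39.5 FPKM in WT. For both genes the groups overlapped. Ndufv3, an accessory subunit of the arm, had 121 and 120 FPKM in dKO and 104 and 108 FPKM in WT (log2 fold change 0.18, SE 0.06, adjusted p = 0.241). Its 2 dKO libraries lay above both WT libraries.

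Core subunits of the ubiquinone-binding part differed by little between the groups. Ndufs7 was at 90.3 and 85.7 FPKM in dKO and 85.6 and 81.4 FPKM in WT. Ndufs3 had 56.9 and 58.9 FPKM in dKO and 55.8 and 61.6 FPKM in WT, and Ndufs8 had 54.0 and 56.7 FPKM in dKO and 55.0 and 55.8 FPKM in WT. The log2 fold changes of these 3 genes lay between -0.02 and 0.07. Ndufa9, an accessory subunit beside them, had 69.5 and 68.3 FPKM in dKO and 61.4 and 61.6 FPKM in WT (log2 fold change 0.16, SE 0.06, adjusted p = 0.288).

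Among the other accessory subunits, Ndufc1, a small membrane-arm subunit, had 106 and 116 FPKM in dKO and 97.5 and 89.0 FPKM in WT (log2 fold change 0.25, SE 0.08, adjusted p = 0.239). The groups did not overlap, but Ndufc1 shares a near-identical stretch with 11 other genes, so its level is uncertain. The most negative changes were those of Ndufa13 and Ndufa6, both -0.09. Ndufa13, a membrane-spanning subunit also known as GRIM-19, had 73.1 and 80.9 FPKM in dKO and 82.8 and 81.5 FPKM in WT. Ndufa6, which binds the mitochondrial acyl carrier protein, had 150 and 154 FPKM in dKO and 159 and 165 FPKM in WT. Ndufa3 had the highest level, with 357 and 369 FPKM in dKO and 323 and 373 FPKM in WT. Ndufb4 had the lowest, with 13.4 and 13.9 FPKM in dKO and 9.28 and 14.8 FPKM in WT. Ndufa4, long listed under complex I and since assigned to complex IV, had 246 and 263 FPKM in dKO and 233 and 241 FPKM in WT.

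Complex II, the succinate dehydrogenase that also acts in the tricarboxylic acid cycle, has 4 subunits, all nuclear. As deposited, 3 of the 4 genes had a positive log2 fold change (75.0%, against 52.8% of all genes tested). The median was 0.058 as deposited and -0.188 (0.032 above all genes) under the scaling to equal summed FPKM. Under that scaling 0 of 4 were positive, against 16.8% of all genes tested, and 0 passed. Sdha, the flavoprotein, had 191 and 186 FPKM in dKO and 175 and 195 FPKM in WT. Sdhb, the iron-sulfur subunit, had 84.9 and 85.6 FPKM in dKO and 78.3 and 81.8 FPKM in WT. It was the only one of the 4 whose groups did not overlap. Of all genes tested, 26.6% had both dKO libraries above both WT libraries, as Sdhb did, and 24.2% had them below. The membrane anchors were Sdhc, with 145 and 119 FPKM in dKO and 112 and 119 FPKM in WT, and Sdhd, with 61.9 and 70.8 FPKM in dKO and 65.4 and 67.7 FPKM in WT. The log2 fold change of Sdhc was 0.18 (SE 0.11), and 0.04 without dKO replicate 1. Sdhd had the change nearest to 0, at -0.01 (SE 0.09).

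In complex III, as deposited, 6 of 8 genes (75.0%, against 52.8% of all genes tested) had positive and 2 negative log2 fold changes. The median was 0.07 as deposited and -0.176 (0.044 above all genes) under the scaling to equal summed FPKM. Under that scaling 0 of 8 were positive, against 16.8% of all genes tested, and 1 passed. Without dKO replicate 2 the median was 0.027. The Rieske iron-sulfur protein gene Uqcrfs1 had 74.8 and 77.7 FPKM in dKO and 72.0 and 76.4 FPKM in WT. The core protein genes were Uqcrc1, with 130 and 135 FPKM in dKO and 125 and 122 FPKM in WT, and Uqcrc2, with 154 and 154 FPKM in dKO and 148 and 151 FPKM in WT. For both core protein genes the dKO libraries lay above the WT libraries by a few FPKM.

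The largest changes of complex III went in opposite directions. Uqcrh, the hinge protein gene and the highest of the complex, had 424 and 491 FPKM in dKO and 505 and 522 FPKM in WT, means of 457 ± 47.8 FPKM in dKO and 513 ± 12.2 FPKM in WT (SD, n = 2 each). The log2 fold change of Uqcrh was -0.17 with an SE of 0.09 (adjusted p = 0.404), the most negative of the family outside a pseudogene. Uqcrq, which helps form the ubiquinone-binding part, had 201 and 205 FPKM in dKO and 191 and 157 FPKM in WT (log2 fold change 0.23, SE 0.11, adjusted p = 0.363). Uqcrb, another small subunit, was the second of the complex with a negative change, with 77.4 and 89.0 FPKM in dKO and 86.6 and 91.3 FPKM in WT.

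In complex IV, cytochrome c oxidase, the catalytic subunits are mitochondrially encoded, and the nuclear genes supply the surrounding subunits. Of 11 genes, 5 had positive (45.5%, against 52.8% of all genes tested) and 6 negative log2 fold changes, with a median of -0.02 as deposited. Under the scaling to equal summed FPKM 0 of 11 were positive, against 16.8% of all genes tested, and 2 passed. The median was -0.212 there and 0.036 under the scaling to genes above 0 in every library. Without dKO replicate 1 it was 0.086 with 8 of 11 positive, without dKO replicate 2 -0.05 with 4 positive, and without WT replicate 2 0.052 with 7 positive. Cox5a, on the matrix side, had 145 and 164 FPKM in dKO and 136 and 150 FPKM in WT, and Cox5b, the zinc-binding subunit, had 119 and 131 FPKM in dKO and 117 and 121 FPKM in WT. Both overlapped between the groups. Cox7a2l, a factor that joins complexes III and IV into supercomplexes, had 198 and 216 FPKM in dKO and 219 and 245 FPKM in WT (log2 fold change -0.16, SE 0.09, adjusted p = 0.408). Cox7c, a small membrane subunit, had 70.1 and 79.4 FPKM in dKO and 83.1 and 81.6 FPKM in WT (log2 fold change -0.14, SE 0.08, adjusted p = 0.446). In both genes the dKO libraries lay below those of WT.

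Several complex IV subunits exist as tissue isoforms, and the Treg of both genotypes had the widely expressed form of each pair. Cox6a1 had 242 and 242 FPKM in dKO and 233 and 225 FPKM in WT, while the muscle form Cox6a2 was at 0.0884 and 0.491 FPKM in dKO and listed at 0 in WT. Cox7a2 had 81.6 and 94.3 FPKM in dKO and 87.4 and 90.2 FPKM in WT. The muscle form Cox7a1 lay just under the expression limit, with 0.709 and 0.659 FPKM in dKO and 1.28 and 0.872 FPKM in WT. Cox8a had 252 and 253 FPKM in dKO and 260 and 254 FPKM in WT, and Cox8b and Cox8c were listed at 0 in all 4 libraries. Cox6b1, which faces the intermembrane space, had 299 and 318 FPKM in dKO and 310 and 318 FPKM in WT. The testis form Cox6b2 lay just inside the limit, with 1.04 and 1.77 FPKM in dKO and 0.667 and 2.49 FPKM in WT. Cox7b had 109 and 118 FPKM in dKO and 98.4 and 114 FPKM in WT, while Cox7b2 was listed at 0 in all libraries, as was the complex I paralogue Ndufa4l2.

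In complex V, 8 of 17 genes had positive (47.1%, against 52.8% of all genes tested) and 9 negative log2 fold changes, with a median of -0.02 as deposited. Under the scaling to equal summed FPKM 1 of 17 was positive, against 16.8% of all genes tested, and 3 passed. The median was -0.27 there and 0.029 under the scaling to genes above 0 in every library. Without dKO replicate 1 it was 0.018 with 12 of 17 positive, without dKO replicate 2 -0.073 with 7 positive, and without WT replicate 2 0.002 with 9 positive. The catalytic head is built from the alpha, beta, gamma, delta and epsilon subunits. Besides the beta gene Atp5b above (log2 fold change 0.06, SE 0.06), the alpha gene Atp5a1 had 384 and 400 FPKM in dKO and 403 and 407 FPKM in WT. The gamma gene Atp5c1, encoding the rotating shaft, had 181 and 193 FPKM in dKO and 199 and 203 FPKM in WT (log2 fold change -0.10, SE 0.07, adjusted p = 0.482). For the alpha and gamma genes the dKO libraries lay below those of WT, and for the beta gene they lay above. The delta gene Atp5d had 208 and 206 FPKM in dKO and 209 and 202 FPKM in WT, and the epsilon gene Atp5e had 414 and 438 FPKM in dKO and 431 and 440 FPKM in WT.

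The c-ring, which turns as protons pass, is made of 1 mature protein encoded by 3 genes. Atp5g3 gave most of the c-ring mRNA, with 262 and 299 FPKM in dKO and 255 and 272 FPKM in WT. Atp5g1 had 75.0 and 72.6 FPKM in dKO and 67.6 and 68.2 FPKM in WT (log2 fold change 0.12), and Atp5g2 had 72.3 and 75.8 FPKM in dKO and 82.5 and 74.6 FPKM in WT (log2 fold change -0.08). Atp5g1 shares a near-identical stretch with 10 other genes, so its level is uncertain. Of the protein-coding subunit genes, 25 share such a stretch with another gene, but only for Ndufc1 and Atp5g1 did a partner exceed 10 FPKM. The pseudogene Atp5k-ps2 was not searched from its own side.

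Of the weaker genes placed in complex V by name, Atp5k-ps2 and Atp5sl are set apart by their annotation. Atp5k-ps2 is a processed pseudogene, with 2.43 and 0 FPKM in dKO and 4.93 and 2.24 FPKM in WT. Its level is uncertain, because it shares a near-identical stretch with Atp5k. Atp5k had 216 and 205 FPKM in dKO and 183 and 215 FPKM in WT. Atp5s, annotated as protein-coding under that name, had 1.88 and 2.13 FPKM in dKO and 0.984 and 1.67 FPKM in WT. Atp5sl is named Dmac2 in the GENCODE annotation and counts in complex V by its older name only. It had 22.6 and 21.7 FPKM in dKO and 22.5 and 20.9 FPKM in WT. Atp5l, the subunit g gene, was listed at 0.124 and 0 FPKM in dKO and 0.252 and 0 FPKM in WT. For a gene that every cell uses, values at or near 0 can be a failed estimate, and the sources used here do not name the annotation that was counted. Among the other subunits around the membrane part and the stator, Atp5h, Atp5j, Atp5j2, Atp5k, Atp5o and Atp5f1 ranged from 116 to 393 FPKM over the 4 libraries.

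Summed within each complex, the deposited levels differed by little between the libraries. Complex I summed to 3469 and 3621 FPKM in dKO and 3342 and 3441 FPKM in WT, where both dKO libraries lay above those of WT. Complex II summed to 483 and 461 FPKM in dKO and 431 and 464 FPKM in WT. Complex III summed to 1310.0 and 1425 FPKM in dKO and 1371 and 1347 FPKM in WT. The groups overlapped for complexes II and III, and they did so for the last pair of complexes too. Complex IV summed to 1698 and 1820.0 FPKM in dKO and 1729 and 1790.1 FPKM in WT. Complex V summed to 3612 and 3790 FPKM in dKO and 3623 and 3786 FPKM in WT.

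As shares of all summed FPKM, the groups did not overlap in any of the 5 complexes, with each dKO share under each WT share. Scaled to equal summed FPKM, only 16.8% of all genes tested had a positive log2 fold change. Gm26377, listed at 0 in WT, held 16.34% and 16.95% of the dKO sums. Its part in these shares was not tested. The share of complex I was 0.477% and 0.503% in dKO and 0.558% and 0.556% in WT. That of complex II was 0.066% and 0.064% in dKO and 0.072% and 0.075% in WT, and that of complex III was 0.18% and 0.198% in dKO and 0.229% and 0.217% in WT. Complex IV held 0.234% and 0.253% in dKO and 0.289% and 0.289% in WT, and complex V held 0.497% and 0.527% in dKO and 0.605% and 0.611% in WT. As shares of genes above 0 in every library, dKO lay above WT in complexes I and II, and the groups overlapped in complexes III to V.

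**Figure D3:**
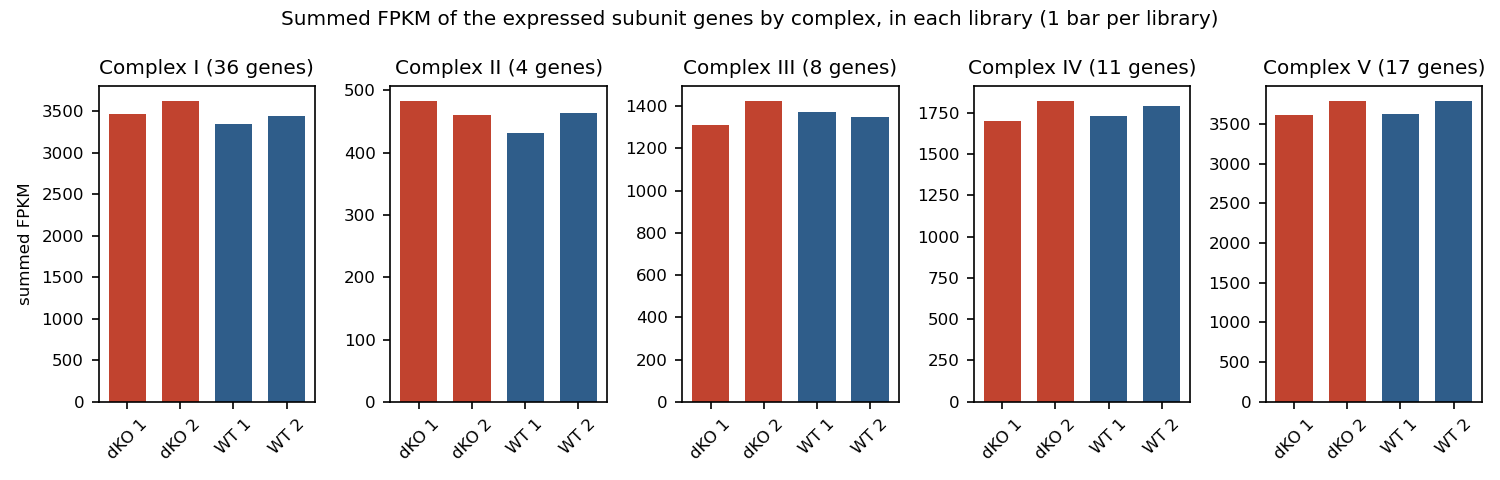
Summed FPKM of the expressed subunit genes of each complex, 1 bar per library, dKO (red) left of WT (blue); vertical axes start at 0 and differ between panels. As deposited, the groups overlap in complexes II to V, and in complex I the dKO libraries sum to 3469 and 3621 FPKM, against 3342 and 3441 FPKM in WT. As shares of all summed FPKM, both dKO libraries lie below both WT libraries in every complex. Those sums include Gm26377, listed at 0 in WT, which held 16.34% and 16.95% of the dKO sums, and its part was not tested. As shares of genes above 0 in every library, dKO lies above WT in complexes I and II, and the groups overlap in complexes III to V. Scaled to equal summed FPKM, only 16.8% of all genes tested have a positive log2 fold change.

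Promoters of respiratory chain genes are known for sites of NRF1, of the ETS factor GABPA and of YY1. The letters GCGCANGCG (NRF1), CCGGAAG (ETS) and AAGATGGCG (YY1) were searched on either strand in RefSeq windows on GRCm38.p6, from 250 bases before to 50 after each gene's start. Windows were held for 63 of 76 subunit genes, and 35 of these (55.6%) held at least 1 match. NRF1 letters stood in 30.2% of the subunit genes' windows, 16.9% of those of all genes tested (n = 8134) and 7.0% of all windows (n = 27025). YY1 letters stood in 12.7%, 4.2% and 1.6%, and ETS letters in 23.8%, 23.2% and 9.9%. The median GC content was 58.3% for the subunit genes, 61.0% for the genes tested and 52.7% for all windows. A gene counts once for each set of letters, and matches may overlap. A match describes the letters and not binding.

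**Figure D4:**
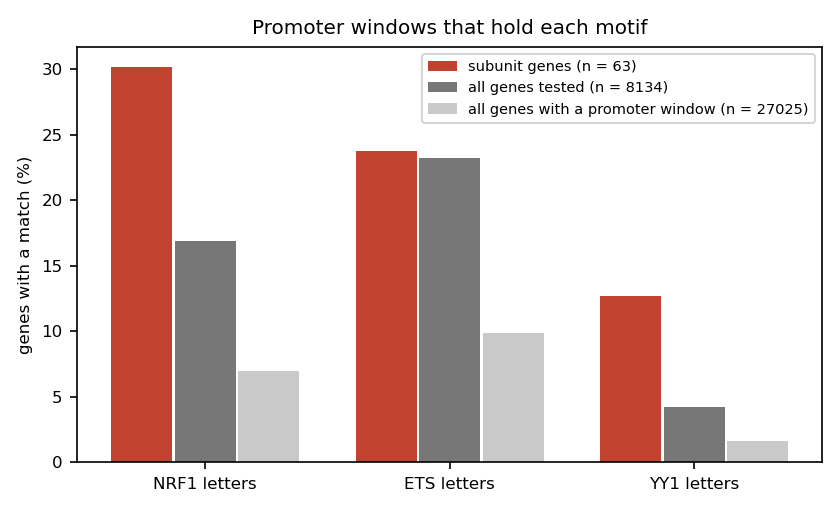
Share of genes (vertical axis, %) whose promoter window holds the NRF1, ETS or YY1 letters on either strand, for the subunit genes (n = 63), all genes tested (n = 8134) and all genes with a window (n = 27025). NRF1 letters stand in 30.2%, 16.9% and 7.0%, and ETS letters in 23.8%, 23.2% and 9.9%.

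The YY1 letters are shown because of their position. In 7 of the 8 genes that held them they began between base 23 and base 36 after the start, on the gene's own strand, and they contain an ATG. Such an element, read with the start codon, is known from genes with short leaders. Among the 7 are Ndufc1 and Ndufa9, described above, and the core subunit gene Ndufs7. Each stretch is 30 bases of GRCm38.p6 from RefSeq, 5′ to 3′ on the gene's strand, with the letters in capitals. The complex in brackets follows the gene name used here, and Atp5sl is named Dmac2 in the GENCODE annotation.
Atp5j2 (complex V, chr5:145191499-145191528, minus strand): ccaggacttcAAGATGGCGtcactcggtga
Atp5sl (complex V, chr7:25619430-25619459, plus strand): gttacctggcAAGATGGCGgcgcccagagc
Ndufa9 (complex I, chr6:126849096-126849125, minus strand): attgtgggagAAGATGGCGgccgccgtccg
Ndufc1 (complex I, chr3:51408914-51408943, minus strand): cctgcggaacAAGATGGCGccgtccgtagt
Ndufs4 (complex I, chr13:114388045-114388074, minus strand): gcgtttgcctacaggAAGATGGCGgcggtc
Ndufs6 (complex I, chr13:73328433-73328462, minus strand): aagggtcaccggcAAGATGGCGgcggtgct
Ndufs7 (complex I, chr10:80249463-80249492, plus strand): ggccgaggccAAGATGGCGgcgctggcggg

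For each complex, the 150 bases before the start are shown for the gene with the highest level among those with a match there, so that the letters can be seen in place; the matches of NRF1 (GCGCANGCG) or ETS (CCGGAAG, or CTTCCGG on the other strand) are in capitals. Sdha held 3 NRF1 matches, and the other 4 genes held 1 ETS match each. The sequences are GRCm38.p6 from RefSeq, 5′ to 3′ on the gene's strand.
Ndufb7 (complex I, chr8:83566608-83566757, plus strand): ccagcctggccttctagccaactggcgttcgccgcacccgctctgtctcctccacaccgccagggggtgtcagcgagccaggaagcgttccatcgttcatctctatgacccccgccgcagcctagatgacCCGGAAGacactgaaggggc
Sdha (complex II, chr13:74350241-74350390, minus strand): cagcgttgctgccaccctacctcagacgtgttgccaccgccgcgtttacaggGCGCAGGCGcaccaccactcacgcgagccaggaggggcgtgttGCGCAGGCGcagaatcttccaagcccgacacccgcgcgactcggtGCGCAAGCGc
Uqcrh (complex III, chr4:116075071-116075220, minus strand): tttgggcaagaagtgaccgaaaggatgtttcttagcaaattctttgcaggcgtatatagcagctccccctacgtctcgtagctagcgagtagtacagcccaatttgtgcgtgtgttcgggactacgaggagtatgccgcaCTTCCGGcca
Cox6b1 (complex IV, chr7:30626115-30626264, minus strand): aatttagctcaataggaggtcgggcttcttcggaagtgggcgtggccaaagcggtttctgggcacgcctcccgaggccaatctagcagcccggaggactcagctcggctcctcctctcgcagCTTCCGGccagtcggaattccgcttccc
Atp5e (complex V, chr2:174464102-174464251, minus strand): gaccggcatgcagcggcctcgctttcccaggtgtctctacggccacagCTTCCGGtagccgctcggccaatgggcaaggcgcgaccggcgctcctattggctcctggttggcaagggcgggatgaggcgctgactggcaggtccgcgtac

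The factors that read these letters were expressed in both genotypes. Nrf1 had 30.8 and 27.1 FPKM in dKO and 29.2 and 28.3 FPKM in WT, and Yy1 had 58.8 and 62.9 FPKM in dKO and 55.6 and 60.3 FPKM in WT. Gabpa had 30.8 and 28.5 FPKM in dKO and 32.6 and 34.8 FPKM in WT (log2 fold change -0.18, SE 0.08, adjusted p = 0.346). The groups overlapped for Nrf1 and Yy1 and not for Gabpa. The median log2 fold change of the subunit genes, as deposited, was 0.037 with NRF1 letters (n = 19) and 0.057 without (n = 44). It was -0.002 with ETS letters (n = 15) and 0.057 without (n = 48). With YY1 letters it was 0.07 (n = 8) and 0.052 without (n = 55). Over all genes tested, the median was 0.028 with ETS letters and 0.008 without, the other way round from the subunit genes. It was 0.017 with NRF1 letters and 0.014 without, and 0.031 with YY1 letters and 0.014 without. The part of the factors in these values was not tested.

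Of the subunits that the name pattern leaves out, 0 of 7 tested passed in limma and 0 had an unadjusted p under 0.05, while 1 of 7 passed under the scaling to equal summed FPKM. As deposited, their log2 fold changes were positive for 3 and negative for 4. Cox4i1, the largest nuclear subunit of complex IV, had 503 and 533 FPKM in dKO and 557 and 575 FPKM in WT (log2 fold change -0.13, SE 0.07, adjusted p = 0.389). Cyc1, the cytochrome subunit of complex III, had 70.7 and 73.2 FPKM in dKO and 68.2 and 70.5 FPKM in WT. Ndufab1, the acyl carrier protein of complex I, had 31.1 and 28.6 FPKM in dKO and 28.4 and 34.7 FPKM in WT. Cycs, cytochrome c itself, had 13.2 and 14.5 FPKM in dKO and 10.8 and 13.97 FPKM in WT. The groups overlapped for Ndufab1 and Cycs.

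Of the 13 subunits encoded by mitochondrial DNA, 5 were listed at 0 in every library (mt-Nd4l, mt-Co2, mt-Co3, mt-Atp6 and mt-Atp8). mt-Co1 passed the test, with 6204 and 6367 FPKM in dKO, and was listed at 0 in both WT libraries. A 0 for a gene that every cell uses can be a failed estimate, so no fold is given. Of the other 7 tested, none passed or had an unadjusted p under 0.05. Under the scaling to equal summed FPKM, 2 of all 8 tested passed. mt-Cytb, the cytochrome of complex III, had 4859 and 4939 FPKM in dKO and 4751 and 5153 FPKM in WT, and mt-Nd1 had 3461 and 3494 FPKM in dKO and 3133 and 3636 FPKM in WT.

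**Figure D5:**
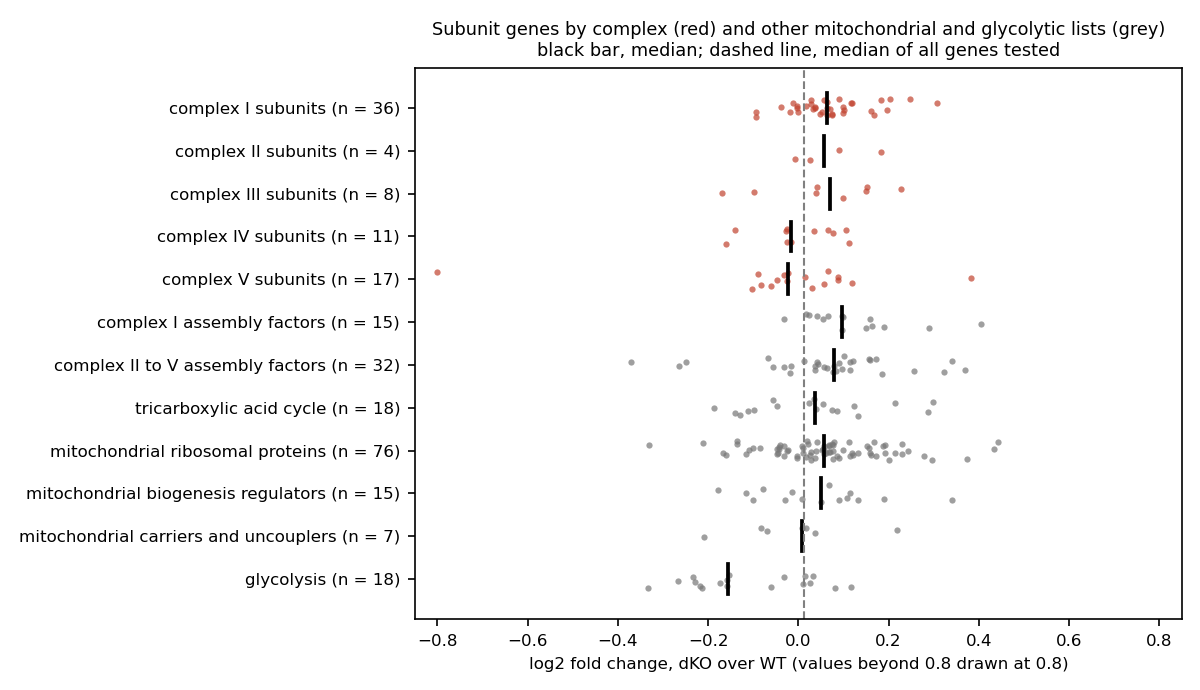
Log2 fold change, dKO over WT, of each gene (points) by list (rows), with subunit genes in red, other lists in grey, list medians as black bars and the median of all genes tested as a dashed line; Atp5k-ps2 is drawn at the left limit. As deposited, the medians lie between -0.155 (glycolysis) and 0.096 (complex I assembly factors); a scaling to equal summed FPKM shifts the median of all genes to -0.22.

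Of genes that assemble, feed or accompany the chain, in 7 further lists, none passed in limma as deposited. Under the scaling to equal summed FPKM, where 1552 of all genes passed, the passing genes were 0 of 15 complex I assembly factors, 2 of 32 assembly factors of the other complexes, 3 of 76 mitochondrial ribosomal protein genes, 5 of 18 of the tricarboxylic acid cycle, 2 of 15 regulators of biogenesis, 1 of 7 carriers and 8 of 18 of glycolysis. As deposited, at an unadjusted p under 0.05 there were 2 of 15 complex I assembly factors, 4 of 32 assembly factors of the other complexes, 8 of 76 mitochondrial ribosomal protein genes, 2 of 18 of the tricarboxylic acid cycle, 0 of 15 regulators of biogenesis, 2 of 7 carriers and 7 of 18 of glycolysis, against 17.3% of all genes tested. As deposited, 14 of 15 complex I assembly factors had a positive log2 fold change and 1 a negative one, against 52.8% positive of all genes tested. Their median was 0.096, and -0.14 under the scaling to equal summed FPKM. Leaving out 1 library, the median lay between 0.039, without dKO replicate 1, and 0.155, without dKO replicate 2, and it was 0.055 with 9 of 15 positive without WT replicate 1. Nubpl, which delivers iron-sulfur clusters to complex I, had 2.90 and 2.36 FPKM in dKO and 1.66 and 1.81 FPKM in WT (log2 fold change 0.40, SE 0.15, adjusted p = 0.283). Of 32 assembly factors of the other complexes, 24 were positive and 8 negative (median 0.079, and -0.159 under that scaling). Without WT replicate 1, 16 of 32 were positive and the median was 0.005, against 48.95% positive and a median of -0.004 over all genes. Ttc19, which acts on complex III, had 3.97 and 3.003 FPKM in dKO and 4.76 and 4.78 FPKM in WT. Both examples are the largest changes of their lists.

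Mitochondrial ribosomal protein genes, which serve translation of the mitochondrially encoded subunits, had 54 positive and 22 negative changes of 76 (median 0.057, and -0.183 under that scaling), the largest being Mrpl27 with 26.6 and 23.1 FPKM in dKO and 17.6 and 18.4 FPKM in WT. The tricarboxylic acid cycle had 11 positive and 7 negative changes of 18 (median 0.037, and -0.207 under that scaling), the largest being Sucla2 with 27.7 and 27.2 FPKM in dKO and 21.3 and 23.0 FPKM in WT. Regulators of mitochondrial biogenesis had 9 positive and 6 negative changes of 15 (median 0.051, and -0.188 under that scaling). Polg, the mitochondrial DNA polymerase, had 107 and 153 FPKM in dKO and 106 and 95.7 FPKM in WT, and the coactivator gene Ppargc1a did not exceed 0.0298 FPKM in any library. Carriers and uncouplers had 4 positive and 3 negative changes of 7 (median 0.009, and -0.238 under that scaling), the largest being Vdac2 with 105 and 104 FPKM in dKO and 87.5 and 92.3 FPKM in WT. Glycolysis had 6 positive and 12 negative changes of 18, with a median of -0.155 as deposited and between -0.383 and -0.108 under the alternatives. Ldhb, a lactate dehydrogenase subunit, had 26.2 and 32.5 FPKM in dKO and 38.1 and 36.0 FPKM in WT. Of all genes tested, 52.8% had a positive change as deposited, with a median of 0.013. No list was tested as a set.

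Single libraries moved the other lists to different degrees. Over all genes, the median was 0.010 without dKO replicate 1 and 0.011 without dKO replicate 2. It was -0.004 without WT replicate 1 and 0.028 without WT replicate 2. The median of the mitochondrial ribosomal protein genes lay between 0.039 and 0.073 with 1 library left out, and that of glycolysis between -0.166 and -0.126. The median of the tricarboxylic acid cycle was -0.012 with 8 of 18 positive without WT replicate 1, -0.007 with 8 of 18 positive without dKO replicate 2 and 0.082 without WT replicate 2. The regulators of biogenesis had a median of 0.011 without WT replicate 1 and of 0.026 without dKO replicate 1. The carriers had medians of -0.044 without dKO replicate 2 and -0.009 without WT replicate 1, with 1 of 7 positive in each case, of 0.056 without dKO replicate 1 and of 0.04 without WT replicate 2.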

How the data were processed

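The authors deposited FPKM per gene for each library; per the submitters' processing notes STAR, Cuffdiff and the GRCm38 build were used, while the sources used here name no version, annotation or between-library scaling. Each of the 4 tables held 32767 genes and as many blank rows, which were left out. The tables of the other experiment of the series were not used. Values were taken as log2(FPKM + 1) and tested with limma (version 3.58.1, R 4.3.3), allowing a variance trend, for the 10710 genes that reached 1 FPKM in 2 or more libraries; tests were two-sided, with p-values adjusted by Benjamini-Hochberg over these genes and a threshold of 0.05. Fold changes on this scale understate those of weakly expressed genes. The fit had 2 residual and 2.85 prior degrees of freedom and was tested on simulated data. An exact permutation test of 2 against 2 libraries cannot go below 0.33, so shares and sums were not tested. Near-identical stretches (at least 95% identity over 100 bases, same strand) of the protein-coding subunit genes were found with blastn 2.17.0. The members and gene lists were chosen with earlier results of these data known. Named genes were central subunits, the highest, lowest and most changed of each complex, tissue isoforms and the most changed of each list. Alternatives varied pseudocount, filter, scaling, variance trend, replicate block and libraries. A scaling to genes above 0 in every library was chosen after seeing the data. Values of 1 subunit gene and 1 marker are not reported here by name; counts and sums include them.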

Additional observations from a re-analysis of the deposited data

How the results depend on the processing

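No subunit gene passed under any alternative except scaling to equal summed FPKM, where 7 passed, all lower in dKO. That scaling also turned the median log2 fold change of the subunit genes to -0.196, while 1552 genes passed in all. Elsewhere the median lay between 0.012 and 0.098, the higher value under the scaling to genes above 0 in every library, an alternative chosen after seeing the data. The subunit share of summed FPKM, 0.25 percentage points lower in dKO, was 0.099 points higher without genes listed at 0 in any library; leaving out 1 library it ranged from -0.295 to -0.205. Of all genes tested, 75 passed; 6 did with no filter, 117 without genes listed at 0, 43 with no variance trend, 42 without dKO replicate 1, 136 without dKO replicate 2, 21 without WT replicate 1 and 14 without WT replicate 2. With the replicate number as a block 21 genes passed and no subunit gene did. The block changed no call among the subunit genes. The labels do not say that a replicate number marks a shared animal or batch; deviations of replicate 1 in dKO and WT had a correlation of 0.014 across the genes tested and of 0.594 across the subunit genes. With 1 library left out, the lone library of a group was assumed to vary like the other group. The cause of these changes was not tested, and with 2 libraries per group and unknown absolute depth small differences were not detectable.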
